A study of Mus musculus with 12 samples.

Results

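Solute carriers are membrane proteins that move nutrients, ions, metals and metabolites across the plasma membrane and the membranes of organelles. Some exchange 1 solute for another, some couple transport to sodium or proton gradients, and others let a solute pass down its own gradient. In astrocytes they take up glucose and transmitters, hand glutamine to neurons and handle bicarbonate, zinc and iron.

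The genes described here are all gene symbols that start with Slc and a digit, apart from the glutamate transporter genes Slc1a2 and Slc1a3, which are used only as astrocyte markers. The array carried 346 of them among 17709 genes. A gene was tested if a probe of it reached a detection p-value under 0.05 on 4 or more of the 12 arrays, as did 216 solute carrier genes out of 10787 genes in all. Of the 130 that did not pass, 102 were detected on 0 arrays and 28 on 1 to 3 arrays. Of those tested, 154 were detected on all 12 arrays. The 8 genes detected on exactly 4 arrays were Slc10a4, Slc22a20, Slc26a7, Slc27a6, Slc36a1, Slc36a2, Slc47a1 and Slc9a9. Their highest log2 signal on any array lay between 5.03 and 5.85, except for Slc36a2 with 8.94. Slc15a1, Slc25a51, Slc38a9 and Slc5a5 were detected on 3 arrays and so not tested, with highest signals of 4.94, 5.41, 5.36 and 5.17 on the log2 scale. Slc26a7, Slc36a2 and Slc9a9 were detected on all 4 BMP4 arrays and on no other array, so that they passed the filter through the BMP4 group alone. The symbol does not always stand for a carrier: Slc9a3r1 and Slc9a3r2 encode scaffold proteins, Slc4a1ap an adaptor, and Slc7a6os a gene on the strand opposite Slc7a6. Classes below go by family number, so Slc9a3r1, Slc9a3r2 and Slc4a1ap count as ion exchange genes and Slc7a6os as an amino acid gene.

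RNA came from neural stem cells of the subventricular zone of CD1 mice, taken at postnatal day 1, and was hybridized to Illumina bead arrays, 4 arrays for each of 3 groups. BMP4 cells carried a retrovirus in which the Gfap promoter drives GFP and were kept for 7 days with the growth factor BMP4 at 20 ng/ml and EGF at 1 ng/ml. LIF_NOG cells carried the same virus and were kept for 7 days with the cytokine LIF at 20 ng/ml, the BMP antagonist noggin at 250 ng/ml and EGF at 1 ng/ml. In both groups the cytokines were added again once, after 3 days, at a lower dose. Neurosphere cells carried a control GFP virus, grew as floating spheres in EGF at 20 ng/ml and were sorted for GFP before RNA was taken. GFP-positive cells were sorted in the other groups before differentiation, and the labels do not say whether they were sorted again at harvest. Against Neurosphere, the cytokine cannot be told apart from the virus, the EGF dose and the days in culture, which all changed with it. Whether samples of a group are separate cultures is not labelled, so p-values cover only the spread among the 4 samples, possibly a technical one. In such bulk RNA, fewer cells of a type and less RNA per cell cannot be told apart.

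Between 38.64% and 41.99% of probes were detected per array, with median raw signals of 68.99 to 80.9. Values are background corrected, quantile normalized log2 signals, and a log2 value of 4.80 to 4.92 marks the detection floor of an array. Levels of different genes are not compared, because each probe has its own brightness. The raw column of Neurosphere 1 stood in another row order and was moved into the order of the others before any step. Raw and processed values shared one row order for Neurosphere 2, 3 and 4 with LIF_NOG 1, 2 and 3, called set A here. The processed values of the other 6 arrays, set B, were listed as raw Neurosphere 1 was, apart from shifts of 0 to 13 rows, and were realigned too. For Neurosphere 1, raw and processed values correlated by rank at 0.476 before these shifts were taken out. Set B holds all of BMP4 along with Neurosphere 1 and LIF_NOG 4. LIF_NOG 2 stood apart from its group: on the second principal component over all genes it scored 11.04, while LIF_NOG 1, 3 and 4 scored 36.04 to 49.83, and its Gfap signal of 8.76 lay below their 11.02 to 12.33. It held the lowest LIF_NOG value for 77 and the highest for 64 of the 216 solute carrier genes. Other arrays often held an extreme value of their group as well, with the highest BMP4 value on BMP4 4 for 79 genes and the highest Neurosphere value on Neurosphere 4 for 93. The labelled astrocyte fate was checked on 11 marker genes, of which 9 were higher and 2 not called in BMP4 against Neurosphere, and 8 were higher and 3 not called in LIF_NOG against Neurosphere. Of all genes tested, 26.6% and 16.5% were called higher in these comparisons. The marker S100b, called higher in BMP4, was detected on the 4 BMP4 arrays alone and passed the filter only through them. The log2 of their summed signal was 16.7 to 17.17 in BMP4, 15.19 to 15.92 in LIF_NOG and 14.37 to 14.52 in Neurosphere. None of 5 microglia markers had a probe that passed the filter.

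BMP4 was compared with Neurosphere to ask how carrier expression differs after a week of BMP4. The zinc importer gene Slc39a12, the sodium-calcium exchanger gene Slc8a1, the creatine transporter gene Slc6a8 and the large neutral amino acid transporter gene Slc7a5 rose by between 3.45 and 6.09 on the log2 scale. The glucose transporter gene Slc2a1 rose 8.83-fold. The fatty acid transport gene Slc27a3, the monoamine and nucleoside transporter gene Slc29a4 and the GABA transporter gene Slc6a11 fell 4.61-fold to 5.73-fold. For Slc29a4, a second kept probe was not called (-0.19). Of the 216 genes tested, 77 were called higher, 34 lower and 105 were not called by limma at a Benjamini-Hochberg adjusted p under 0.05. The 111 calls are 51.4% of the family, against 54.3% of all genes tested. By direction, 35.6% of the family was called higher, against 26.6% of all genes, and 15.7% was called lower, against 27.7% of all genes. With a change of at least 2-fold, 44 were higher (20.4% of the family and 13.9% of all genes) and 10 were lower (4.63% and 11.8%). The median log2 fold change was 0.118 over the family and 0.003 over all genes. For 104 genes (48.1%, against 52.9% of all genes) the BMP4 and Neurosphere arrays did not overlap.

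All BMP4 arrays lie in set B with 1 Neurosphere array, so that a comparison within the set would rest on that array and was not run. With the set as a block 63 genes were called higher and 28 lower, and without Neurosphere 1 the counts were 73 and 30. Over all genes, higher and lower calls went from 2868 and 2988 to 2263 and 2420 with the block. Without Neurosphere 1 the calls over all genes were 2662 and 2751.

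**Figure D1:**
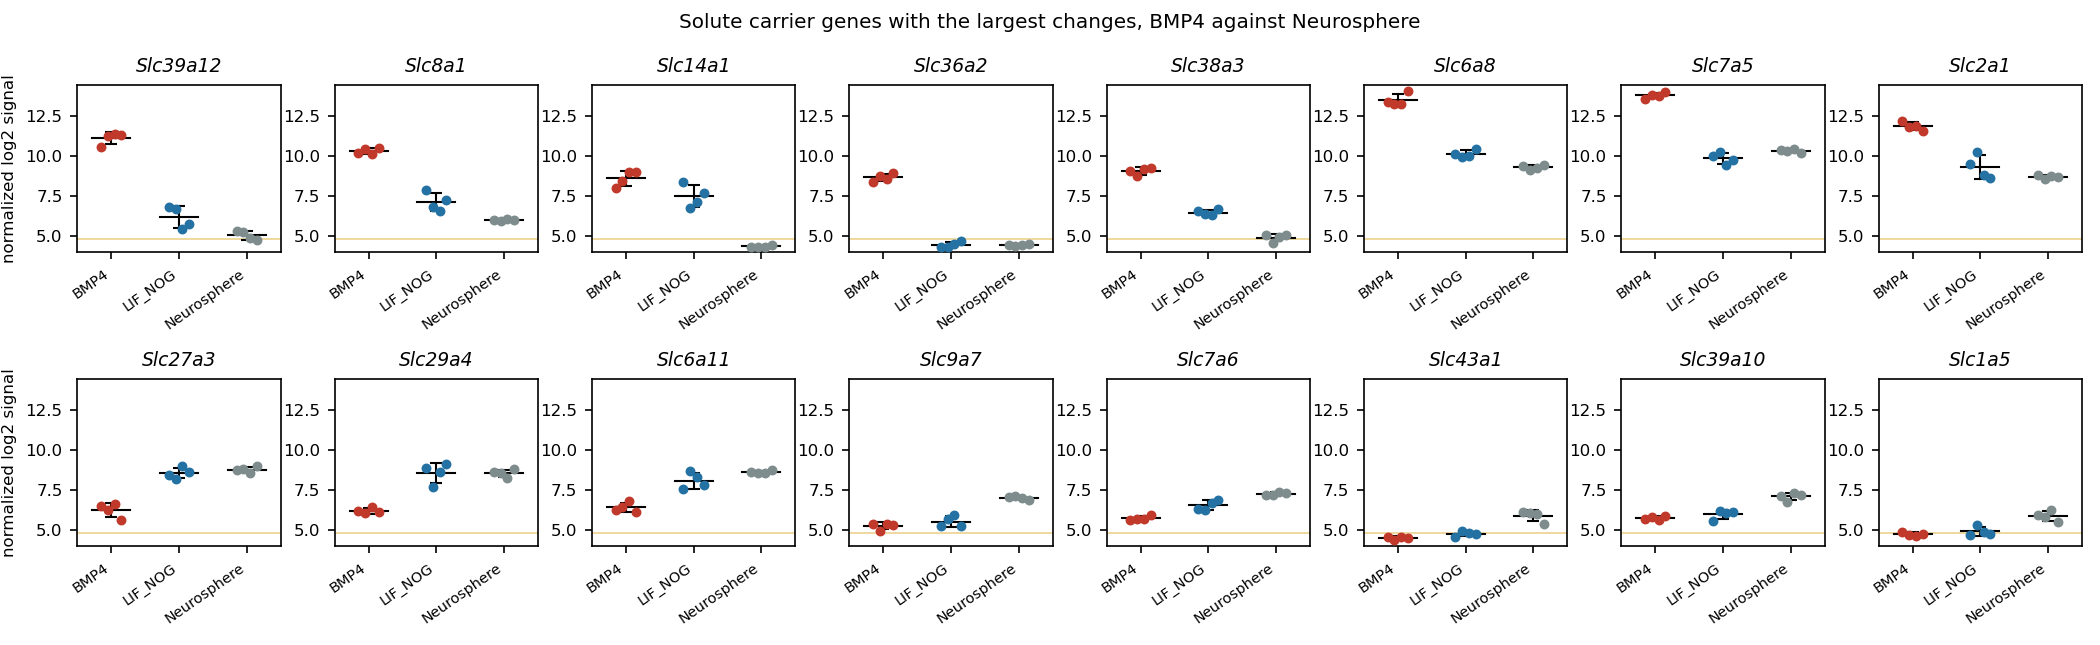
Normalized log2 signal (vertical axis) of the 8 solute carrier genes with the largest rise (upper row) and the 8 with the largest fall (lower row) in BMP4 against Neurosphere. Points are arrays, bars the mean and SD of 4 arrays, and the narrow orange band is the range of the detection floor, 4.80 to 4.92. Genes were picked among those called, detected throughout the higher group and without overlap. That the 4 BMP4 points lie clear of the 4 Neurosphere points in every panel follows from this choice.

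The class of amino acid, creatine and transmitter carriers, which by family number includes Slc7a6os, had 39 tested genes. Of these, 10 were higher and 10 lower in BMP4, close to the shares of all genes (26.6% higher and 27.7% lower). Slc6a8 had log2 signals of 13.43, 13.27, 13.26 and 14.07 in BMP4, 10.17, 9.99, 10.01 and 10.46 in LIF_NOG, and 9.42, 9.18, 9.29 and 9.48 in Neurosphere. Every BMP4 array was above every other array, and the LIF_NOG arrays lay just above the Neurosphere arrays. The gene was 17.9-fold higher in BMP4 than in Neurosphere (log2 fold change 4.17 ± 0.18, SE, n = 4 arrays per group here and below, limma adjusted p = 5.98e-10).

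Slc7a5 encodes the light chain and Slc3a2 the heavy chain of the transporter that brings large neutral amino acids such as leucine into cells. Slc7a5 signals were 13.61, 13.86, 13.78 and 14.03 in BMP4, 10.00, 10.29, 9.47 and 9.77 in LIF_NOG, and 10.41, 10.37, 10.47 and 10.23 in Neurosphere. Slc3a2 signals were 8.41, 8.43, 8.78 and 8.66 in BMP4, 6.08, 5.87, 5.42 and 5.93 in LIF_NOG, and 5.24, 5.78, 5.76 and 5.51 in Neurosphere. For both chains the BMP4 arrays stood apart from all others. Slc7a5 rose 10.9-fold (3.45 ± 0.16, limma adjusted p = 1.24e-09) and Slc3a2 7.98-fold (3.00 ± 0.17, limma adjusted p = 6.38e-09). Slc7a11, the light chain of the cystine-glutamate exchanger that shares this heavy chain, was not called, with 5.92 to 6.20 in BMP4 and 6.21 to 6.55 in Neurosphere (-0.26 ± 0.20, limma adjusted p = 0.318). Slc7a6, another light chain of the same family, fell, with 5.68, 5.73, 5.73 and 5.99 in BMP4 against 7.20, 7.20, 7.39 and 7.32 in Neurosphere (-1.50 ± 0.15, limma adjusted p = 1.18e-06). For Slc7a6, a second kept probe was not called (-0.22).

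Slc38a3 encodes the glutamine transporter by which astrocytes exchange glutamine with the extracellular space. Its signals were 9.10, 8.76, 9.19 and 9.29 in BMP4, 6.56, 6.38, 6.32 and 6.69 in LIF_NOG, and 5.08, 4.58, 4.94 and 5.07 in Neurosphere. The 3 groups did not overlap, and BMP4 was above Neurosphere by 4.17 ± 0.15 on the log2 scale (limma adjusted p = 1.38e-10). The system A glutamine and alanine transporter genes Slc38a2 and Slc38a1 went the other way, lower by 1.10 ± 0.19 and 0.80 ± 0.15 on the log2 scale. Slc38a2 had 8.65, 8.37, 7.77 and 7.91 in BMP4 against 9.15, 9.27, 9.43 and 9.26 in Neurosphere. Its second kept probe was not called (0.09). Of the other Slc38a1 probes, that at -0.39 was called lower, and those at -0.30 and -0.09 were not called. Slc36a2, which encodes a proton-coupled carrier of glycine and proline, had 8.40, 8.80, 8.61 and 8.94 in BMP4. Its LIF_NOG values of 4.32 to 4.70 and its Neurosphere values of 4.38 to 4.54 all lay under the detection floor. It was thus at least 13.9-fold higher in BMP4 than in Neurosphere, a bound for which values under the floor were set to the floor. The gene was tested only because the BMP4 arrays detected it, so the bound is given without a p-value.

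The transmitter transporters differed among themselves. The taurine transporter gene Slc6a6 had 11.26, 12.01, 11.19 and 12.17 in BMP4 against 9.43, 9.27, 9.06 and 9.27 in Neurosphere, a 5.27-fold rise. The glycine transporter gene Slc6a9 had 11.71, 11.97, 12.07 and 11.67 in BMP4 against 10.04, 10.23, 10.46 and 10.90 in Neurosphere, a 2.73-fold rise. For Slc6a9, a second kept probe was not called (0.11). Slc6a11, which encodes a GABA transporter of astrocytes, fell, with 6.25, 6.45, 6.86 and 6.17 in BMP4 against 8.65, 8.57, 8.59 and 8.75 in Neurosphere. That is a 4.61-fold lower signal (-2.21 ± 0.22, limma adjusted p = 1.34e-06), and none of the arrays of these groups overlapped for the 3 genes. Among carriers of neutral amino acids, the serine transporter gene Slc1a4 rose by 0.77 ± 0.15, with 12.02 to 12.77 in BMP4 against 11.67 to 11.88 in Neurosphere. Its relative Slc1a5, which carries glutamine, had a signal at least 2.05-fold lower. All Neurosphere arrays but only 1 BMP4 array detected it. Other kept probes of Slc1a5 were not called (-0.11 and 0.27), and the mean of its probes gave -0.33. Slc43a1, which carries branched-chain amino acids, was at least 2.08-fold lower, and no BMP4 array detected it. Slc7a3, a transporter gene for arginine and lysine, was called lower although the groups overlapped (-0.91 ± 0.32, limma adjusted p = 0.0259), and lost the call without Neurosphere 1 (-0.83, 0.0704), Neurosphere 2 (-0.78, 0.081), BMP4 1 (-0.78, 0.0791) or BMP4 4 (-0.63, 0.0878), each with its adjusted p.

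Of 26 sugar and monocarboxylate carriers, 6 were higher in BMP4, 3 lower and 17 not called, beside 26.6% higher and 27.7% lower of all genes. Slc2a1, the glucose transporter gene of blood-brain barrier cells and astrocytes, had 12.19, 11.86, 11.91 and 11.56 in BMP4, 9.52, 10.30, 8.81 and 8.64 in LIF_NOG, and 8.84, 8.62, 8.78 and 8.72 in Neurosphere. BMP4 stood clear of both groups, and the LIF_NOG arrays spread from the Neurosphere level upwards. The rise over Neurosphere was 3.14 ± 0.28 on the log2 scale (limma adjusted p = 5.23e-07). Slc2a13, which encodes a proton-coupled myo-inositol transporter of brain, had 9.61, 9.92, 9.53 and 9.21 in BMP4 against 6.82, 6.94, 6.86 and 7.14 in Neurosphere, 6.19-fold higher. The neuronal glucose transporter gene Slc2a3 was not called, with 8.09 to 8.48 in BMP4 and 8.34 to 8.53 in Neurosphere. The lactate transporter gene Slc16a1 was detected on 0 arrays.

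The ion exchange and cotransport class, which by family number includes Slc9a3r1, Slc9a3r2 and Slc4a1ap, had 14 of 26 tested genes higher and 4 lower. The higher genes include Slc9a3r2 and the lower ones Slc4a1ap. The median log2 fold change of the class was 0.533, and 26.6% of all genes were called higher and 27.7% lower. Slc8a1, which exchanges sodium for calcium at the plasma membrane, had 10.22, 10.50, 10.16 and 10.51 in BMP4, 7.88, 6.86, 6.59 and 7.27 in LIF_NOG, and 5.99, 5.98, 6.06 and 6.01 in Neurosphere. The 3 groups were fully separate, with BMP4 20.2-fold above Neurosphere (4.34 ± 0.22, limma adjusted p = 2.19e-09). Slc4a4 encodes the sodium bicarbonate cotransporter of astrocytes. It had 8.57, 8.30, 8.58 and 8.25 in BMP4 against 6.44, 6.21, 6.10 and 4.78 in Neurosphere, where it was detected on 3 of 4 arrays, a rise of 2.54 ± 0.41 (limma adjusted p = 0.000116). The anion exchanger gene Slc26a6 rose by 2.83 ± 0.22, with 8.02 to 8.98 in BMP4 and 5.02 to 6.04 in Neurosphere. Slc12a9, a member of the cation-chloride cotransporter family, rose by 2.29 ± 0.21. Slc9a7, a sodium-proton exchanger gene of the Golgi, fell, with 5.43, 4.97, 5.43 and 5.31 in BMP4 against 7.08, 7.15, 7.02 and 6.91 in Neurosphere (-1.75 ± 0.16, limma adjusted p = 7.7e-07).

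Metal transporters had 12 of 24 tested genes higher and 3 lower, with a median of 0.437, beside 26.6% higher and 27.7% lower of all genes. Slc39a12 encodes a zinc importer found mainly in brain. Its signals were 10.59, 11.28, 11.43 and 11.36 in BMP4, 6.86, 6.74, 5.49 and 5.77 in LIF_NOG, and 5.35, 5.27, 4.92 and 4.76 in Neurosphere. The groups did not overlap, and the change of 68.1-fold was the largest of the family (6.09 ± 0.29, limma adjusted p = 1.64e-09). Another zinc importer gene, Slc39a10, fell by 1.34 ± 0.16, with 5.66 to 5.92 in BMP4 against 6.80 to 7.31 in Neurosphere. The magnesium transporter gene Slc41a3 had 8.09, 8.42, 8.26 and 8.68 in BMP4 against 6.02, 5.97, 5.61 and 6.22 in Neurosphere, a 5.31-fold rise. The zinc transporter gene Slc39a13 rose by 2.00 ± 0.25. Slc40a1, the only known iron exporter gene of mammals, was at least 3.25-fold higher, with 6.95, 6.63, 6.87 and 5.93 in BMP4 against 4.43 to 4.80 in Neurosphere, where it was detected on 0 arrays.

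The phosphate and dicarboxylate group was small, with 3 of 5 tested genes higher (26.6% of all genes) and the other 2 not called. Slc20a1, a sodium-coupled phosphate importer gene, had 10.40, 9.75, 10.12 and 11.09 in BMP4, 7.21, 7.91, 7.43 and 7.35 in LIF_NOG, and 7.96, 7.75, 8.19 and 8.11 in Neurosphere. All BMP4 arrays were above all others, and BMP4 was 5.03-fold above Neurosphere (2.33 ± 0.24, limma adjusted p = 1.84e-06). Its paralog Slc20a2 rose by 0.94 ± 0.12. Slc13a3, which encodes a dicarboxylate transporter of astrocytes, had 7.42, 7.34, 7.38 and 7.21 in BMP4 against 5.43, 5.43, 4.88 and 5.13 in Neurosphere, a rise of 2.12 ± 0.23.

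Carriers of organic ions, peptides and vitamins had 12 of 27 tested genes higher and 2 lower, beside 26.6% and 27.7% of all genes. Slc14a1, the urea transporter gene of red cells and astrocytes, had 8.01, 8.49, 9.02 and 9.00 in BMP4, 8.38, 6.78, 7.16 and 7.73 in LIF_NOG, and 4.32 to 4.46 in Neurosphere, where it was detected on 0 arrays. It was at least 13.3-fold higher in BMP4 than in Neurosphere (limma adjusted p = 5.23e-08). Its other kept probes were called higher too, by a smaller 0.68 to 1.32 on the log2 scale. Slc46a3, a lysosomal carrier gene, rose by 1.57 ± 0.23, and the peptide transporter gene Slc15a2 by 0.85 ± 0.22. Slc19a1, the reduced folate carrier gene, fell by 0.75 ± 0.16.

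Of 29 nucleoside and nucleotide sugar carriers, 10 were higher and 5 lower, beside 26.6% higher and 27.7% lower of all genes. Slc35f3 was at least 7.23-fold higher, with 8.02, 8.24, 7.61 and 7.13 in BMP4 against 4.42 to 4.90 in Neurosphere. Slc29a3, a nucleoside transporter gene of lysosomes, rose by 1.36 ± 0.18. Slc29a4 fell, with 6.18, 6.06, 6.44 and 6.13 in BMP4, against 8.93, 7.72, 8.65 and 9.12 in LIF_NOG and 8.63, 8.57, 8.29 and 8.83 in Neurosphere (-2.38 ± 0.24 against Neurosphere, limma adjusted p = 1.75e-06). That call rests on 1 probe, since a second kept probe of Slc29a4 was not called (-0.19). Of 33 mitochondrial carriers, 10 were higher and 4 lower, with a median of 0.008, beside the same shares of all genes. The mitochondrial glutamate carrier gene Slc25a18 was called higher by 1.82 ± 0.55 (limma adjusted p = 0.0119), although its groups overlapped, with 11.43, 10.24, 12.90 and 10.66 in BMP4 against 9.08, 8.84, 10.86 and 9.16 in Neurosphere. Slc25a45, a mitochondrial carrier gene, rose by 1.61 ± 0.23. Of the 4 fatty acid and acetyl-CoA carriers tested, 2 were lower and 2 not called, beside 27.7% lower of all genes. Slc27a3, which encodes an acyl-CoA synthetase of the fatty acid transport family, had 6.54, 6.28, 6.65 and 5.66 in BMP4, 8.46, 8.22, 9.01 and 8.63 in LIF_NOG, and 8.78, 8.84, 8.58 and 9.00 in Neurosphere. It fell by 2.52 ± 0.21 (limma adjusted p = 3.04e-07), and its BMP4 arrays were below all others.

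The authors' processed values gave smaller differences for many of these genes. Slc39a12 rose there by 3.91, Slc8a1 by 2.89, Slc38a3 by 2.05, Slc14a1 by 1.85 and Slc36a2 by 1.84 on the log2 scale, while Slc6a8 and Slc7a5 rose by 4.07 and 3.46. Falls were smaller too, at -1.44 for Slc27a3, -1.32 for Slc29a4, -1.27 for Slc6a11, -0.61 for Slc9a7 and -0.61 for Slc7a6.

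Promoter sequence is shown for 3 genes that rose in BMP4: Slc39a12, which had the largest change, and Slc41a3 and Slc20a1, whose promoters hold the E-box searched for. Each line is the 250 bases before the first transcription start listed by RefSeq (GRCm38.p6, plus strand), at chr2:14388148-14388397, chr6:90618996-90619245 and chr2:129198523-129198772, and capitals mark a CACGTG motif.
Slc39a12: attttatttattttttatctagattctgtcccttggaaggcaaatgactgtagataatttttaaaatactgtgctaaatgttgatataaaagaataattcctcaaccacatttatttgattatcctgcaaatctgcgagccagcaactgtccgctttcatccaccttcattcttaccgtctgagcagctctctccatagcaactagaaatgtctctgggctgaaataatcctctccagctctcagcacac
Slc41a3: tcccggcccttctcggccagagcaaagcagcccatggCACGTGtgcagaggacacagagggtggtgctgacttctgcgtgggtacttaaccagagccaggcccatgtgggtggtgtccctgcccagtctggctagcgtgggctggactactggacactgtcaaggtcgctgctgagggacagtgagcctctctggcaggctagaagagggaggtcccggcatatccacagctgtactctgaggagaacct
Slc20a1: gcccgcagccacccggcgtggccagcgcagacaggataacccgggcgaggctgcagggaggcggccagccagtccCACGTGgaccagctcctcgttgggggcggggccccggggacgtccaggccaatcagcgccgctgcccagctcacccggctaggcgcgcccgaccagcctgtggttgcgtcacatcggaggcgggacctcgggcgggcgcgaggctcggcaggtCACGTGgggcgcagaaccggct
Counted with -1 as the base before the start site, the motif begins at -213 in Slc41a3 and at -175 and -22 in Slc20a1. The Slc39a12 window held none of the 3 motifs searched and had a GC content of 37.6%, against 61.2% for Slc41a3 and 75.2% for Slc20a1. RefSeq promoters were found for 168 of the 216 genes. CACGTG was in 21 of them (12.5%), against 8.23% of the promoters of all genes tested and 6.05% of 27025 promoters of the same length. It stood in 10 of 61 promoters of genes called higher in BMP4 than in Neurosphere, 4 of 25 of those called lower and 7 of 82 of those not called. GGCGCC, the core of a GC-rich BMP response element, was in 17.3% of the family's promoters and in 16.2% of those of all genes tested. TTCNNNGAA, the core of a STAT site, was in 4.76% and 6.01%. The 3 motifs read the same on both strands. A match describes the letters of the window and does not show binding.

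**Figure D2:**
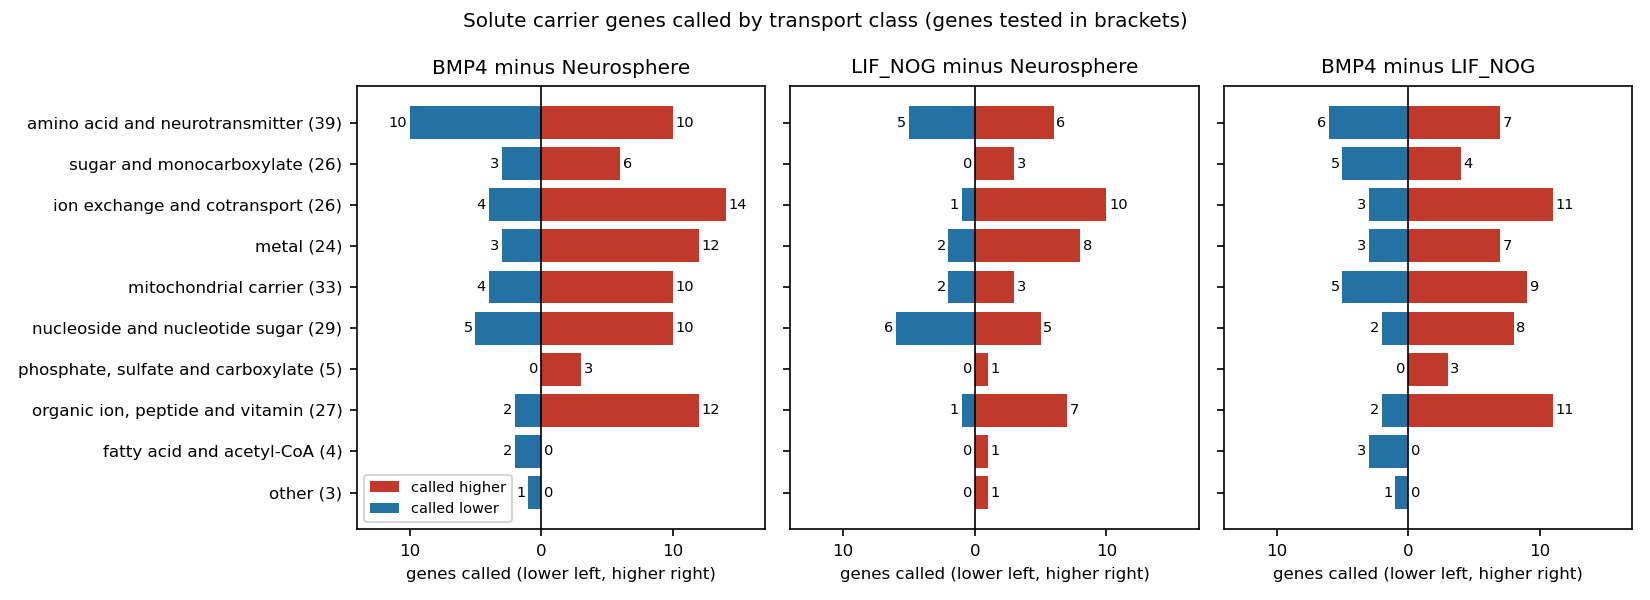
Number of solute carrier genes called higher (right) and lower (left) in each transport class, for the comparisons of BMP4 with Neurosphere, LIF_NOG with Neurosphere and BMP4 with LIF_NOG, with the number of genes tested in brackets. The ion exchange, metal, mitochondrial, phosphate and organic ion classes have more genes to the right than to the left in all 3 panels. In BMP4 against Neurosphere 14 ion exchange, 12 metal and 12 organic ion genes were called higher. Of all genes tested, 26.6% were called higher and 27.7% lower in that comparison. The shares were 16.5% each way in LIF_NOG against Neurosphere, and 20.7% higher and 23.2% lower in BMP4 against LIF_NOG.

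LIF_NOG was compared with Neurosphere to ask the same of LIF with noggin, and used the same Neurosphere arrays. The urea transporter gene Slc14a1 showed the largest rise, at least 6.14-fold, and the zinc and manganese importer gene Slc39a14 was at least 3.48-fold higher. Each of these calls rests on 1 probe. Other kept probes were not called, at log2 changes of 0.42, 0.52 and 0.31 for Slc14a1 and 0.30 for Slc39a14. The mitochondrial carrier gene Slc25a45 and the urea transporter gene Slc14a2 rose 3.71-fold and 3.04-fold. The largest falls were those of Slc9a7 (2.82-fold lower) and of Slc7a3 (2.72-fold lower). Of the 216 genes, 45 were called higher, 17 lower and 154 were not called, so that 28.7% were called, against 33.1% of all genes tested. Higher calls made up 20.8% of the family and 16.5% of all genes, and lower calls 7.87% and 16.5%. A change of at least 2-fold was called for 21 genes upwards (9.72% against 6.69% of all genes) and 6 downwards (2.78% against 4.02%). The median log2 fold change was 0.036 over the family and -0.012 over all genes, and 61 genes (28.2% against 31.6% of all genes) did not overlap between the groups.

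The count of lower genes moved with single choices: it was 26 without LIF_NOG 2, 9 within set A (3 arrays against 3) and 10 with arrays scaled to a common median. Over all genes lower calls moved the same way, from 1784 to 2097, 731 and 1143. With that scaling 82.5% of the family's calls were higher, against 72.6% with quantile normalization, and 62.4% against 50% of all genes' calls.

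Slc14a1 values in LIF_NOG, given above, all lay over the detection floor, while no Neurosphere array did (limma adjusted p = 7.84e-06). Slc14a2, its neighbour in the urea transporter family, had 8.61, 6.51, 7.79 and 7.26 in LIF_NOG against 5.76, 5.73, 5.86 and 6.41 in Neurosphere (1.60 ± 0.34, limma adjusted p = 0.00299). The groups did not overlap, and within set A the call was lost (1.64, limma adjusted p = 0.0528). Slc39a14 had 6.51, 5.86, 7.07 and 7.69 in LIF_NOG against 4.66, 4.69, 4.79 and 5.27 in Neurosphere, where it was detected on 1 array (limma adjusted p = 0.000298). Among metal transporters 8 of 24 were higher and 2 lower, beside 16.5% each way of all genes. The magnesium transporter genes Slc41a2 and Slc41a3 rose by 1.52 ± 0.24 and 1.20 ± 0.17, and Slc39a12 rose by 1.14 ± 0.29 (limma adjusted p = 0.00871), a call lost on the authors' processed values (0.33, adjusted p = 0.17). Slc39a10 fell by 1.11 ± 0.16, with 5.60 to 6.20 in LIF_NOG against 6.80 to 7.31 in Neurosphere.

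The ion exchange and cotransport class had 10 of 26 genes higher, Slc9a3r1 among them, and 1 lower, beside 16.5% each way of all genes. Its median was 0.404. Slc12a9 rose by 1.40 ± 0.21, with 6.77, 6.62, 6.89 and 7.28 in LIF_NOG against 5.63, 5.59, 5.19 and 5.55 in Neurosphere. Slc8a1 rose by 1.14 ± 0.22, while its second kept probe was not called (-0.02). Slc24a4, a potassium-dependent sodium-calcium exchanger gene, was called higher by 1.17 ± 0.27 (limma adjusted p = 0.00522). Its LIF_NOG values were 7.33, 5.56, 6.56 and 6.83 and overlapped the 5.25, 5.22, 5.64 and 5.50 of Neurosphere through LIF_NOG 2. Within set A the call was lost (1.03, limma adjusted p = 0.115). A second kept probe of Slc24a4 was at -0.20 and not called. Slc9a3r1, the scaffold protein gene, was called higher by 1.08 ± 0.33 (limma adjusted p = 0.0229), a call lost without Neurosphere 3 (0.89, adjusted p = 0.0775), LIF_NOG 1 (1.02, adjusted p = 0.062) or LIF_NOG 4 (1.01, adjusted p = 0.059). Slc26a6 was called higher by 0.70 ± 0.22 (limma adjusted p = 0.028), and not without Neurosphere 2 (0.50, adjusted p = 0.0941), LIF_NOG 1 (0.72, adjusted p = 0.0502), LIF_NOG 3 (0.64, adjusted p = 0.0731) or LIF_NOG 4 (0.66, adjusted p = 0.0684), nor on the authors' processed values (0.21, adjusted p = 0.236). Slc4a4 was not called, with 5.87, 7.71, 5.88 and 5.78 in LIF_NOG, and Slc9a7 had 5.28, 5.72, 5.93 and 5.25 in LIF_NOG, below all Neurosphere arrays.

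Amino acid and transmitter carriers had 6 of 39 genes higher and 5 lower, close to the 16.5% each way of all genes. Slc38a3 rose by 1.57 ± 0.15 (limma adjusted p = 9.78e-06), and the sialic acid and aspartate carrier gene Slc17a5 by 1.46 ± 0.25. Slc17a5 had 7.49, 6.26, 7.44 and 7.48 in LIF_NOG against 5.62, 5.33, 5.75 and 6.15 in Neurosphere, with LIF_NOG 2 nearest to Neurosphere. Slc1a4 rose by 0.87 ± 0.15 and Slc6a8 by 0.81 ± 0.18. Slc7a3 fell, with 5.45, 5.17, 5.70 and 5.31 in LIF_NOG against 7.09, 7.26, 6.45 and 6.60 in Neurosphere (-1.44 ± 0.32, limma adjusted p = 0.00364). Slc43a1 and Slc1a5 were at least 2.06-fold and 1.9-fold lower, detected on 1 and 2 of the 4 LIF_NOG arrays, and Slc7a6 fell by 0.71 ± 0.15. Other kept probes of Slc1a5 (-0.17 and -0.21) and of Slc7a6 (-0.21) were not called. Slc3a2 (0.25 ± 0.17), Slc6a6 (-0.04 ± 0.22), Slc6a9 (0.44 ± 0.18) and Slc6a11 (-0.54 ± 0.22) were not called. Slc6a9 passed without Neurosphere 4 (0.60, adjusted p = 0.0122) and Slc6a11 without LIF_NOG 2 (-0.74, adjusted p = 0.00583). The vesicular transporter genes of glutamate and GABA neurons, Slc17a6 and Slc32a1, were each detected on 2 LIF_NOG arrays and on no other array, and were not tested.

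Among sugar carriers 3 of 26 were higher (16.5% of all genes) and 23 not called, with the largest change in Slc2a3. It had 9.51, 9.60, 9.43 and 9.60 in LIF_NOG, against 8.34, 8.43, 8.53 and 8.46 in Neurosphere, and rose by 1.10 ± 0.11 (limma adjusted p = 1.79e-05). The BMP4 arrays lay at the Neurosphere level, and LIF_NOG stood above both. The myo-inositol transporter gene Slc5a3 was at least 1.80-fold higher, and was detected on 4 LIF_NOG arrays and on 1 Neurosphere array. Slc2a1 missed the threshold (0.58 ± 0.28, limma adjusted p = 0.136), although it passed when LIF_NOG 4 was left out (0.81, adjusted p = 0.0396). In the fatty acid class Slc27a1 rose by 1.02 ± 0.23, with 9.33, 8.74, 9.38 and 9.54 in LIF_NOG against 8.06 to 8.49 in Neurosphere. Slc25a45 had 8.15, 7.56, 8.35 and 8.50 in LIF_NOG against 5.81, 5.97, 6.53 and 6.67 in Neurosphere (1.89 ± 0.23, limma adjusted p = 5.32e-05). The ATP-magnesium carrier gene Slc25a25 fell by 1.11 ± 0.32 (limma adjusted p = 0.0153), a call lost within set A (-0.84, adjusted p = 0.0954), and its LIF_NOG 2 value of 8.02 lay within the Neurosphere range of 8.00 to 8.26.

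Nucleoside and nucleotide sugar carriers were the class with more lower than higher calls, 6 against 5 of 29, beside 16.5% each way of all genes. Slc29a3 rose by 1.21 ± 0.18, and Slc35f3 was at least 1.76-fold higher, a call lost on the authors' processed values (0.24, adjusted p = 0.168). Slc29a2, an equilibrative nucleoside transporter gene, fell by 0.94 ± 0.20, with signals between 4.92 and 5.85 in LIF_NOG against 6.36 to 6.51 in Neurosphere. For Slc29a2, a second kept probe was not called (0.08). In the organic ion, peptide and vitamin class 7 of 27 were higher and 1 lower, beside the same shares of all genes. The lower gene was Slc19a1, with 7.47, 8.00, 7.82 and 7.69 in LIF_NOG against 8.96, 8.94, 9.02 and 8.94 in Neurosphere (-1.22 ± 0.16, limma adjusted p = 0.000109).

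BMP4 was compared with LIF_NOG directly, which is the test of the difference between both treatments. Both groups carried the same virus and the same EGF dose and were harvested at the same time. Slc36a2, Slc39a12, Slc7a5 and Slc6a8 were at least 10.2-fold higher in BMP4, and Slc8a1 was 9.17-fold higher. Of these, Slc36a2 was tested only because the BMP4 arrays detected it. Slc14a2 was at least 5.80-fold lower in BMP4, Slc29a4 5.29-fold lower and Slc27a3 4.92-fold lower. The Slc29a4 call rests on 1 probe, and a second kept probe was not called (0.07). Of the 216 genes, 60 were called higher, 30 lower and 126 were not called, which gives 41.7%, against 43.9% of all genes tested. Higher calls made up 27.8% of the family and 20.7% of all genes, and lower calls 13.9% and 23.2%. At least 2-fold calls numbered 33 higher (15.3% against 9.11% of all genes) and 10 lower (4.63% against 7.85%). The median log2 fold change was 0.093 over the family and -0.003 over all genes, and 71 genes (32.9% against 37.1% of all genes) did not overlap.

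Set B holds 1 LIF_NOG array, and this comparison was not run within the set. With the set as a block 45 genes were called higher and 21 lower, and without LIF_NOG 2 the counts were 59 and 29. Over all genes, higher and lower calls went from 2234 and 2503 to 1643 and 1726 with the block. Without LIF_NOG 2 the calls over all genes were 2323 and 2738.

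**Figure D3:**
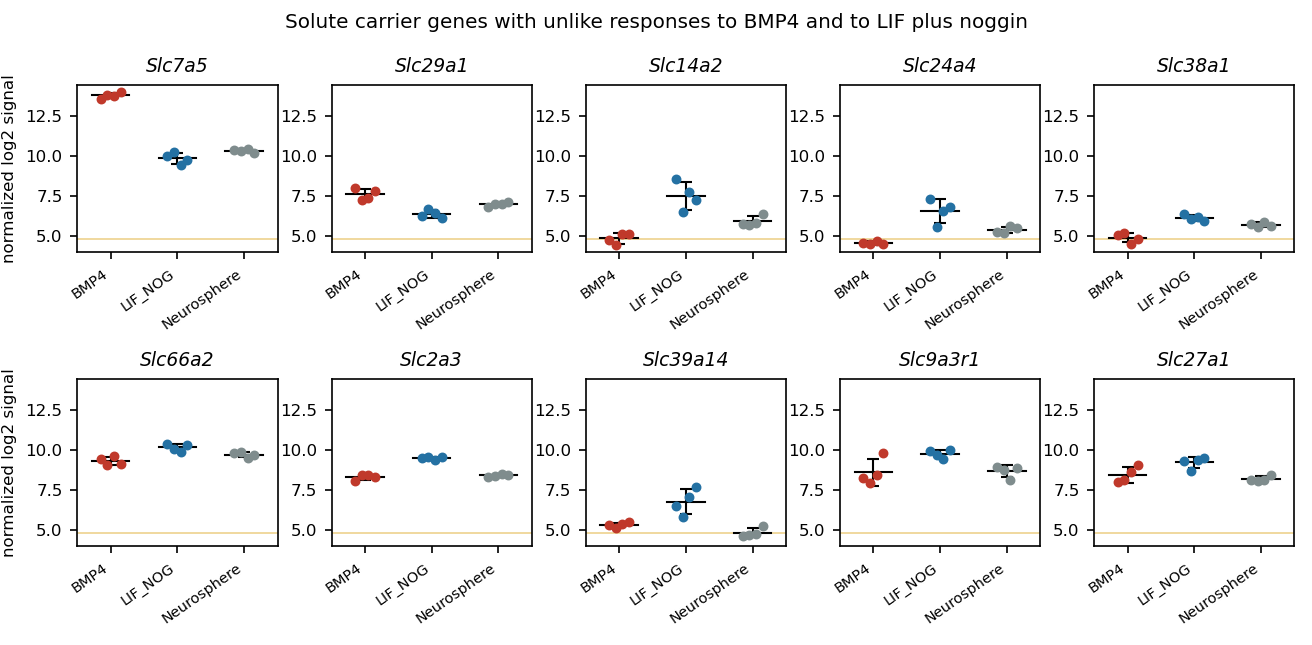
Normalized log2 signal of 10 solute carrier genes with unlike values in BMP4 and LIF_NOG, per array, with the mean and SD of 4 arrays and a narrow orange band for the detection floor (4.80 to 4.92). BMP4 is highest in the panels of Slc7a5 and Slc29a1, and LIF_NOG has the highest mean in the other 8 panels.

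Amino acid and transmitter carriers had 7 of 39 genes higher and 6 lower in BMP4, beside 20.7% higher and 23.2% lower of all genes. Slc7a5 was 15.3-fold higher in BMP4 than in LIF_NOG (3.94 ± 0.16, limma adjusted p = 6.49e-10) and Slc3a2 6.71-fold higher. Slc6a6, with 8.83, 9.28, 9.21 and 9.55 in LIF_NOG, was 5.42-fold higher in BMP4, and Slc6a8 10.2-fold higher. Slc38a2, with 9.25, 9.91, 9.61 and 9.82 in LIF_NOG, was 2.78-fold lower in BMP4 (-1.47 ± 0.19, limma adjusted p = 3.43e-05). Slc6a11, with 7.57, 8.72, 8.31 and 7.82 in LIF_NOG, was 3.18-fold lower. Slc38a1 was 2.38-fold lower, with 5.10, 5.19, 4.55 and 4.84 in BMP4 against 6.43, 6.09, 6.19 and 5.99 in LIF_NOG. By the probe used, none of these 7 genes overlapped between the groups. For Slc38a2, a second kept probe was not called (0.07). Of the other Slc38a1 probes, that at -0.50 was called lower, and those at -0.37 and 0.23 were not called. Slc7a11 missed the threshold (-0.50 ± 0.20, limma adjusted p = 0.0573), but passed when LIF_NOG 4 was left out (-0.69, adjusted p = 0.00735), with arrays scaled to a common median (-0.58, adjusted p = 0.0282), with its probes averaged (-0.54, adjusted p = 0.0192) and with the replicate number as a block (-0.50, adjusted p = 0.02).

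The glucose transporter genes Slc2a1 and Slc2a3 were called in opposite directions. Slc2a1 was 5.90-fold higher in BMP4 than in LIF_NOG (2.56 ± 0.28, limma adjusted p = 7.39e-06) and Slc2a3 2.29-fold lower (-1.20 ± 0.11, limma adjusted p = 2.09e-06). Slc2a13, with 7.43, 6.73, 6.77 and 7.25 in LIF_NOG, was 5.74-fold higher in BMP4. Among the 4 fatty acid carriers, a small class, 3 were lower in BMP4 than in LIF_NOG, beside 23.2% of all genes. They were Slc27a3 (-2.30 ± 0.21), Slc27a1 (-0.77 ± 0.23) and Slc27a6, which was detected on 0 BMP4 arrays and on 2 LIF_NOG arrays. The Slc27a1 call was lost without BMP4 1 (-0.61, adjusted p = 0.0535) or BMP4 2 (-0.65, adjusted p = 0.0506). That of Slc27a6 was lost when LIF_NOG 3 (adjusted p = 0.0977), LIF_NOG 4 (adjusted p = 0.0829), BMP4 1 (adjusted p = 0.0595), BMP4 2 (adjusted p = 0.0579) or BMP4 3 (adjusted p = 0.0547) was left out, and with the set as a block (adjusted p = 0.0565).

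Of 10 tested genes of the Slc39 family of zinc importers, 3 were higher in BMP4 than in LIF_NOG, 1 was lower and 6 were not called. Of all genes, 20.7% were called higher and 23.2% lower. Slc39a12 was 30.9-fold higher in BMP4 than in LIF_NOG (4.95 ± 0.29, limma adjusted p = 2.09e-08) and Slc39a13 2.80-fold higher. Slc39a14, at 5.37, 5.14, 5.37 and 5.49 in BMP4, was 2.71-fold lower (-1.44 ± 0.29, limma adjusted p = 0.00125). A second kept probe of Slc39a14 was not called (-0.08). Slc40a1, with 5.66, 4.75, 5.21 and 5.17 in LIF_NOG, was 2.63-fold higher in BMP4. For the phosphate and dicarboxylate carriers 3 of 5 were higher and 2 not called, with Slc20a1 7.28-fold and Slc13a3 3.99-fold higher in BMP4. Slc15a2, which takes up small peptides, was 2.65-fold higher, with 8.41, 8.22, 8.42 and 7.76 in BMP4 against 7.07, 7.00, 6.83 and 6.30 in LIF_NOG. Slc14a1 was called higher in BMP4 (1.12 ± 0.30, limma adjusted p = 0.00723) although the groups overlapped, and a block for the set ended the call (1.02, adjusted p = 0.076). Slc12a9 (0.89 ± 0.21) lost its call with that block too (0.63, adjusted p = 0.085), as did Slc46a3 (0.81 ± 0.23, against 0.70 and adjusted p = 0.11). The mitochondrial ADP/ATP carrier gene Slc25a4 was 2.25-fold higher in BMP4, with 8.09, 7.78, 8.19 and 9.23 against 6.84, 7.33, 7.25 and 7.20 in LIF_NOG. Slc25a18 was called at an adjusted p of 0.0468 by limma (1.45 ± 0.55), and lost the call in 11 of the alternatives, among them leaving out BMP4 3 (0.92, adjusted p = 0.151).

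For 6 genes the changes against Neurosphere were called in opposite directions with the 2 treatments, which share their Neurosphere arrays. A difference between BMP4 and LIF_NOG follows largely from this choice of genes and is no separate support. How often such opposite calls occur over all genes was not counted. In Slc29a1, an equilibrative nucleoside transporter gene, the signals were 8.01, 7.28, 7.43 and 7.83 in BMP4, 6.25, 6.70, 6.46 and 6.13 in LIF_NOG, and 6.84, 7.05, 7.01 and 7.15 in Neurosphere. It was called higher in BMP4 (0.63 ± 0.17) and lower in LIF_NOG (-0.63 ± 0.17) than in Neurosphere. Averaging its probes removed the BMP4 call (0.47, adjusted p = 0.0666), and scaling arrays to a common median removed the LIF_NOG call (-0.48, adjusted p = 0.0675). Slc14a2 had 4.78, 4.44, 5.12 and 5.15 in BMP4, where 2 arrays detected it, so that it was at least 1.91-fold lower there than in Neurosphere. That call was lost without Neurosphere 4 (adjusted p = 0.0566) or BMP4 2 (adjusted p = 0.053), with the set as a block (adjusted p = 0.168) and on the authors' processed values (-0.27, adjusted p = 0.303). Slc24a4 was detected on 0 BMP4 arrays and was at least 1.45-fold lower there than in Neurosphere, a call lost without Neurosphere 3 (adjusted p = 0.0576), with the set as a block (adjusted p = 0.0778) and on the authors' processed values (-0.18, adjusted p = 0.205). BMP4 against LIF_NOG, Slc24a4 was at least 3.26-fold lower (limma adjusted p = 5.1e-05). These Slc24a4 calls rest on 1 probe. A second kept probe was not called for BMP4 against Neurosphere (-0.16), LIF_NOG against Neurosphere (-0.20) or BMP4 against LIF_NOG (0.04).

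The calls of the other 3 genes against Neurosphere were close to the threshold. Slc38a1 was higher in LIF_NOG by 0.45 ± 0.15 (limma adjusted p = 0.0388), and not without Neurosphere 1 (0.46, adjusted p = 0.0705), Neurosphere 2 (0.40, adjusted p = 0.109), Neurosphere 4 (0.43, adjusted p = 0.0806), LIF_NOG 1 (0.36, adjusted p = 0.12) or LIF_NOG 3 (0.44, adjusted p = 0.0756). The call rests on 1 of its 4 probes: the mean of the probes gave 0.08 (adjusted p = 0.62), and the other probes were at -0.32, 0.07 and 0.11 and not called. Slc7a5 was lower in LIF_NOG by 0.49 ± 0.16 (limma adjusted p = 0.0324), a call lost without Neurosphere 1, 2 or 3 or LIF_NOG 3 or 4 (-0.49 to -0.35, adjusted p = 0.0665 to 0.103). Slc66a2 had 9.43, 9.09, 9.67 and 9.18 in BMP4, 10.43, 10.11, 9.92 and 10.34 in LIF_NOG, and 9.85, 9.89, 9.55 and 9.69 in Neurosphere. Its calls were lost without any 1 of 6 arrays for BMP4 against Neurosphere (-0.43 to -0.32, adjusted p = 0.0551 to 0.133) and of 5 arrays for LIF_NOG against Neurosphere (0.38 to 0.49, adjusted p = 0.0561 to 0.116). Its BMP4 arrays lay below all LIF_NOG arrays (-0.85 ± 0.16, limma adjusted p = 0.000524).

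**Figure D4:**
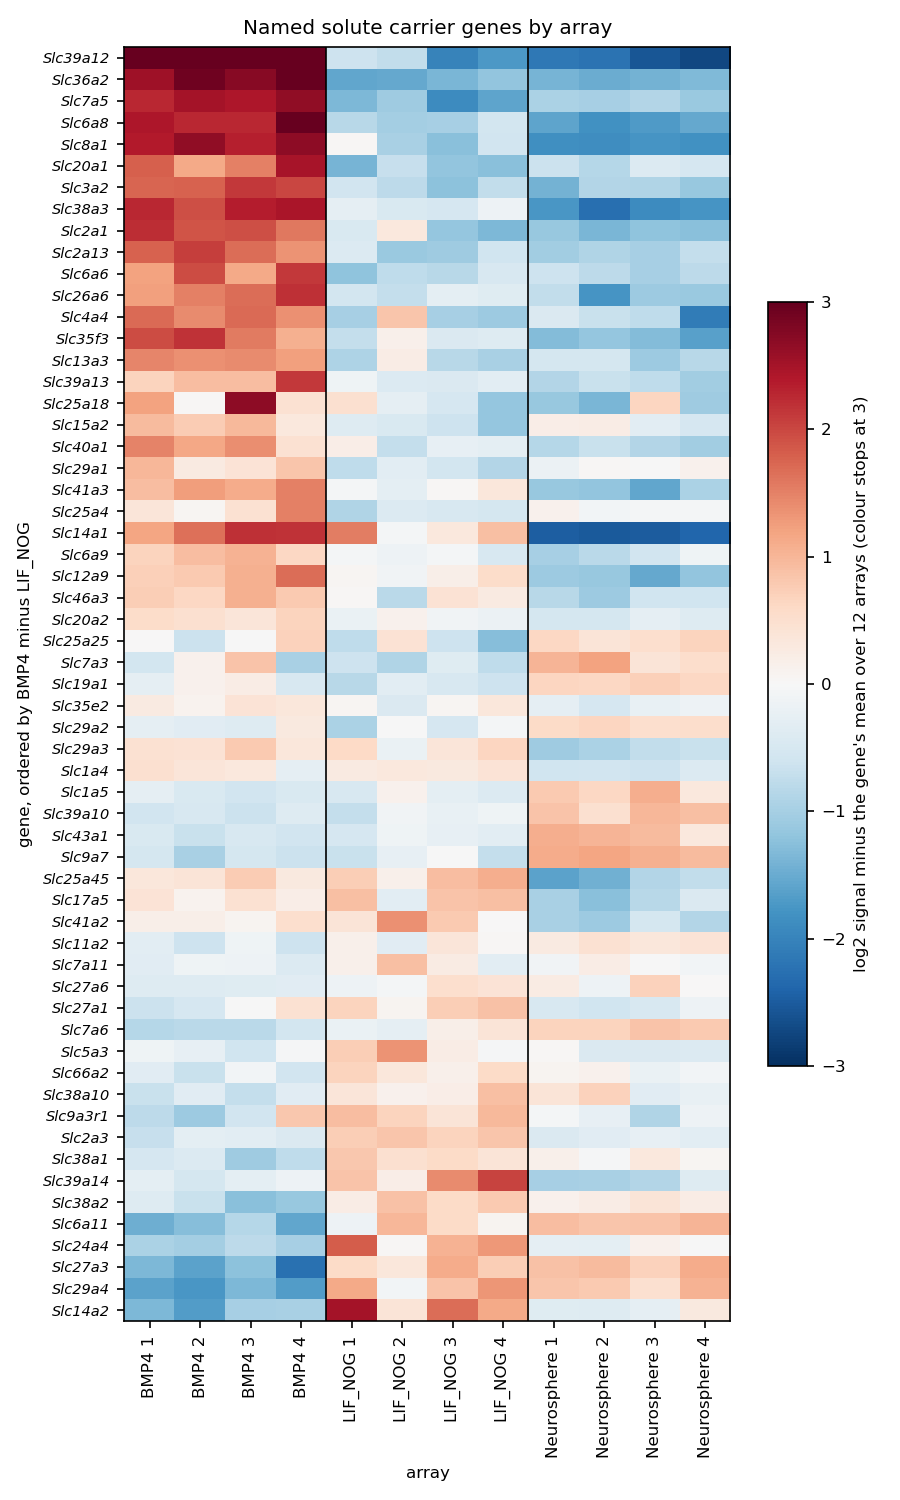
Log2 signal of the 59 solute carrier genes chosen by the naming rule on each of the 12 arrays, minus the mean of that gene over the arrays, with genes ordered from the largest to the smallest BMP4 minus LIF_NOG difference. Slc39a12 stands at the top (4.95) and Slc14a2 at the bottom (-2.67), and LIF_NOG 2 departs from its group in Slc4a4, Slc13a3 and Slc24a4.

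Several genes had more than 1 kept probe, 55 in all, and in 3 of them probes were called in opposite directions for BMP4 against Neurosphere. For Slc11a2, the iron and manganese importer gene, the probe used here was lower (-0.80), a second probe higher (0.92) and another not called (-0.33). Slc35e2 had probes at 0.57 and -0.57, and Slc38a10 at -0.64 and 0.56. The direction of these 3 genes is therefore uncertain. In 28 of the 55 genes some probes were called and others not. Among them, chosen after their values were seen, Slc44a1, a choline transporter gene, counted as not called (0.38) although its other probes rose by 2.86 and 1.76, and Slc4a8, a sodium bicarbonate exchanger gene, counted as not called (0.08) with another probe at 2.73.

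Genes that work with carriers were read from lists of partners, pumps and a related family. Over all genes tested, 26.6% were called higher and 27.7% lower in BMP4 than in Neurosphere, 16.5% each way in LIF_NOG against Neurosphere, and 20.7% higher and 23.2% lower in BMP4 than in LIF_NOG. Of 9 sodium and calcium pump genes tested, 5 were higher in BMP4 than in Neurosphere, 2 higher in LIF_NOG than in Neurosphere and 6 higher in BMP4 than in LIF_NOG, with the rest not called. Fxyd6, a regulator of the sodium pump, rose by 3.44 ± 0.21 in BMP4 against Neurosphere, and Atp1b2, a pump subunit gene of astrocytes, rose by 3.46 ± 0.36 in BMP4 and 2.49 ± 0.36 in LIF_NOG. Of 10 partner and regulator genes, 5 were higher and 2 lower in BMP4, and 2 higher and 2 lower in LIF_NOG, each against Neurosphere, and 4 were higher and 2 lower in BMP4 than in LIF_NOG. Emb, which encodes a chaperone of monocarboxylate carriers, had 9.30, 9.12, 9.33 and 9.38 in BMP4, 4.98, 4.58, 4.45 and 4.67 in LIF_NOG, and 6.05, 6.00, 6.15 and 5.12 in Neurosphere. The 3 groups did not overlap, and BMP4 was at least 21.03-fold above LIF_NOG. Txnip, which encodes a protein that removes glucose transporters from the cell surface, rose by 2.65 ± 0.39 in BMP4 against Neurosphere (limma adjusted p = 5.37e-05) and was not called in LIF_NOG (0.06 ± 0.39).

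Organic anion transporter genes with the prefix Slco, a related family outside the rule, had 2 of 5 tested genes higher in BMP4 than in Neurosphere and 2 higher in BMP4 than in LIF_NOG. Their log2 changes in LIF_NOG against Neurosphere, which did not pass the test, were between -0.05 (Slco2a1) and 0.49 (Slco1c1). Slco1a4 was detected on BMP4 arrays alone, and so tested only through them, and was at least 3.77-fold higher than in Neurosphere. Of 11 genes of the amino acid response, which several amino acid carriers share, 1 was higher and 4 lower in BMP4, and 2 higher and 3 lower in LIF_NOG, each against Neurosphere, with 2 higher and 3 lower in BMP4 than in LIF_NOG. Asns, which encodes asparagine synthetase, fell by 1.82 ± 0.19 in BMP4 and by 1.32 ± 0.19 in LIF_NOG.

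Markers of other cell types and of division were read as well, and their part in the carrier changes was not tested. Over all genes, 26.6% were called higher and 27.7% lower in BMP4 than in Neurosphere. The shares were 16.5% each way in LIF_NOG against Neurosphere, and 20.7% higher and 23.2% lower in BMP4 against LIF_NOG. All 4 oligodendrocyte markers tested were higher in LIF_NOG than in Neurosphere and lower in BMP4 than in LIF_NOG, and 1 was lower in BMP4 than in Neurosphere. The log2 of their summed signal was 6.75 to 7.62 on the log2 scale in BMP4, 11.46 to 12.86 in LIF_NOG and 7.89 to 8.75 in Neurosphere. The 4 cell cycle genes tested were lower in both treated groups than in Neurosphere and lower in BMP4 than in LIF_NOG, with log2 summed signals of 6.93 to 8.35 in BMP4, 9.56 to 11.9 in LIF_NOG and 12.57 to 12.74 in Neurosphere. Of 7 neuron markers 2 were higher in each treated group, of 4 endothelial and mural markers 1 in each, and of 2 choroid plexus and meninges markers 1 in BMP4, all by limma against Neurosphere. The latter 2 lists owe their BMP4 call to Rgs5 and Folr1. Both genes were detected on the 4 BMP4 arrays alone and were tested only for that reason. These lists are small, and their counts are not read as changes of a cell type. Of 5 neural stem cell markers, 2 were lower in BMP4 and 1 was higher in LIF_NOG. The log2 of the summed neuron marker signal was 9.25 to 10.16 in BMP4, 9.32 to 10.6 in LIF_NOG and 8.82 to 9.04 in Neurosphere.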

How the data were processed

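Illumina mouse bead arrays measured RNA in 12 samples, 1 array each, and titles and descriptions gave the groups. Per the file headers, the deposited raw table holds a non-normalized signal intensity per probe and array, with a detection p-value beside it that the authors' software computed before deposition. The authors also deposited processed intensity values, whose transform is not given in the sources used here. BeadStudio 3 and lumi 2.15.1 appear in the submitters' processing notes, with no role stated. No per-sample column was left unused (0 columns).

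The raw rows of Neurosphere 1 were matched to those of the other arrays through 5 arrays whose raw and processed values are listed in different row orders: 46617 of 46630 rows were matched and 13 left out, within a rank distance of 0.002. The rank correlation of Neurosphere 1 with its group was then 0.916 to 0.928, and its probes that share a gene correlated at 0.285 over 7568 pairs, against 0.0111 in the deposited order. After 11 repeated probe IDs were removed, 46609 probes remained, of which 29962 carried 1 gene symbol by the platform annotation.

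R 4.3.3 and limma 3.58.1 were used. Its neqc function corrected the background by normexp, with control probe levels deduced from detection p-values and an offset of 16, then applied quantile normalization and log2. Each gene was represented by its kept probe with the highest mean. One model with a mean per group covered all 12 arrays (lmFit and eBayes, with 9 degrees of freedom from residuals and 4.604 from the prior), and two-sided p-values were adjusted by the Benjamini-Hochberg method over 10787 genes. Fold changes carry the limma SE. Where 2 or fewer arrays of the dimmer group detected a gene, its values under the floor were set to the floor and the fold is a lower bound. The fit was checked on simulated data. The number of arrays limits the precision. Tables and figures used Python 3.11.15, pandas 2.3.3 and matplotlib 3.10.9.

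The genes, transport classes (by family number), lists and tests were chosen with earlier results of these data known. Named per comparison were the 8 largest rises and 8 largest falls among called genes without overlap and with detection throughout the higher group, the 2 largest called changes of each class, a set of well-studied carriers whatever their result, genes called in opposite or the same directions against Neurosphere, and genes whose probes disagree. Slc7a10 was detected on 0 arrays. Alternatives were another scaling, the authors' processed values, other filters, the mean of a gene's probes, blocks, set A alone, another prior, and leaving out each array.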

Additional observations from a re-analysis of the deposited data

Results flagged for a closer look

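Single arrays stood far from the rest of their group for 7 of the 177 groups of 4 values looked at over the 59 named genes (3.95%), where chance gives about 1 in 20. On LIF_NOG 2, Slc4a4 was at 7.71 against 5.88 for the nearest other LIF_NOG array, and Slc13a3 at 6.19 against 5.13, both the highest of their group. Without this array Slc4a4 was 2.58 higher in BMP4 than in LIF_NOG on the log2 scale, against 2.11 with it, and Slc13a3 2.28 higher, against 2.00 with it. Slc17a5 was lowest on LIF_NOG 2, at 6.26 against 7.44 for the nearest array. Without that array Slc17a5 was called lower in BMP4 than in LIF_NOG (-0.58, limma adjusted p = 0.011), against -0.28 with it. Slc25a18 was highest on Neurosphere 3 at 10.86, against 9.16 for the nearest other Neurosphere array. Slc25a4 was at 7.86 on Neurosphere 1, against 7.67, and Slc5a3 at 5.33 on the same array, the only Neurosphere array that detected it, against 4.88. Slc7a6 was at 5.99 on BMP4 4, against 5.73 for the nearest BMP4 array.

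For 6 genes the changes against Neurosphere were called in opposite directions with the treatments, and the genes were chosen for this. A BMP4 minus LIF_NOG difference, and arrays that do not overlap, follow largely from that choice and are no separate support. In the same limma fit this difference was 3.94 for Slc7a5, 1.25 for Slc29a1, -0.85 for Slc66a2, -1.25 for Slc38a1, -1.99 for Slc24a4 and -2.67 for Slc14a2. The values of Slc24a4 and Slc14a2 are fitted, since 0 and 2 of the 4 BMP4 arrays detected these genes, and the bounds are at least 3.26-fold and at least 5.80-fold lower in BMP4. By the probe used for each gene, the BMP4 and LIF_NOG arrays did not overlap in any of the 6 genes. A second kept probe of Slc24a4 was not called (0.04).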

How the results depend on the processing

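For BMP4 against Neurosphere, the count of solute carrier genes called higher was 70 to 80 on leaving out 1 array at a time and the count called lower 30 to 35, against 77 and 34. For LIF_NOG against Neurosphere the ranges were 34 to 50 higher and 14 to 26 lower, against 45 and 17, and for BMP4 against LIF_NOG 55 to 59 higher and 24 to 30 lower, against 60 and 30. The solute carrier genes called lower in LIF_NOG than in Neurosphere numbered 10 with arrays scaled to a common median and 26 without LIF_NOG replicate 2. Within row-order set A, where fewer arrays were used, they numbered 9. Over all genes these counts were 1143, 2097 and 731, against 1784. The cause of these shifts was not tested, and within set A the smaller number of arrays cannot be told apart from the set. With the mean of the probes of a gene, Slc11a2 turned to 0.21 for BMP4 against LIF_NOG and Slc35e2 to -0.0008 for BMP4 against Neurosphere.

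Of the 59 named genes, 52 were called for BMP4 against Neurosphere, 41 of them under every alternative. For LIF_NOG against Neurosphere 36 were called, 23 under every alternative, and for BMP4 against LIF_NOG 45 and 35. Deviations of same-numbered arrays of different groups correlated at -0.0546 to 0.261, and since not every pair was over 0.1 the numbers were not taken to pair samples. As a hint from the data, each BMP4 array correlated best with the LIF_NOG array of its own number (0.0623 to 0.201, against 0.0334 at most for other numbers). With the replicate number as a block the counts of higher and lower genes were 77 and 34, 43 and 18, and 61 and 32. Probes near the detection floor, as for Slc36a2, Slc14a1 and Slc40a1 in Neurosphere, allow lower bounds only.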

Other observations

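A few more genes of the family, chosen after their values were seen, changed clearly in BMP4. Slc8b1, which encodes the mitochondrial sodium-calcium exchanger, had 9.33, 9.38, 9.69 and 9.23 in BMP4, 7.62, 7.51, 7.91 and 7.75 in LIF_NOG, and 6.65, 6.66, 6.58 and 6.86 in Neurosphere, with no overlap between groups (2.72 ± 0.13 for BMP4 against Neurosphere, limma adjusted p = 1.77e-09). Slc24a3, a potassium-dependent sodium-calcium exchanger gene, had 9.17, 9.45, 9.28 and 9.09 in BMP4 against 7.05, 7.39, 7.27 and 7.68 in Neurosphere, 3.73-fold higher. Slc24a4, of the same family, was detected on 0 BMP4 arrays by the probe used. Slc37a2, a sugar phosphate exchanger gene, had 7.13, 6.78, 6.31 and 7.24 in BMP4 and was at least 3.81-fold higher there than in LIF_NOG. Its second kept probe was not called for BMP4 against LIF_NOG (0.17). Slc22a4, a carrier gene for ergothioneine, was detected on all 4 LIF_NOG arrays and on 0 Neurosphere arrays, and was at least 1.80-fold higher in LIF_NOG.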
